A study of Arabidopsis thaliana with 27 samples.

Results

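The abscisic acid (ABA) biosynthesis genes described here are the 9-cis-epoxycarotenoid dioxygenase genes NCED2, NCED3, NCED5, NCED6 and NCED9, together with ABA1, ABA2, ABA3, ABA4 and AAO3. They were chosen by name for their place in the pathway, and all 10 of the 10 genes sought were found among the 21313 genes of the table. The samples came from freshly harvested, dormant (D) seeds of the Arabidopsis accession Cvi, a wild accession with strong seed dormancy and no transgene or mutation named in the labels. Transcripts were measured with Affymetrix ATH1 arrays in 9 sample groups with 3 replicate arrays each. They were non-dissected dry seeds, and 2 seed compartments dissected from seeds imbibed in water for 3, 7, 12 or 24 hours after sowing (HAS), namely the endosperm of the micropylar and the chalazal end (MCE) and the radicle with the hypocotyl (RAD). The RAD is the lower part of the embryo axis, so the cotyledons were in the dry seeds but in neither compartment.

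ABA is the plant hormone that imposes and maintains seed dormancy and holds back germination. It is made from carotenoids: ABA1, a zeaxanthin epoxidase, makes violaxanthin, ABA4 is needed for the next conversion to neoxanthin, and the NCED enzymes cleave the 9-cis forms of these compounds to xanthoxin in the plastid. In the cytosol ABA2, a short-chain dehydrogenase, turns xanthoxin into abscisic aldehyde, and AAO3, an aldehyde oxidase, turns the aldehyde into ABA. AAO3 works only with a sulfurylated molybdenum cofactor, which the sulfurase ABA3 provides. The cleavage by NCED is regarded as the main regulatory step, and the level of ABA also depends on its removal by the CYP707A hydroxylases and by conjugation to glucose.

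All levels are the RMA values deposited by the authors on the log2 scale, where a difference of 1 is a doubling, and a group mean above 5 was taken as expressed, since the study regards lower values as array noise. A fold given as "at least" is a bound for a comparison with 1 side below 5, for which group means below 5 were raised to 5. Unless raised means are stated, log2 values are as fitted, also where 1 or both sides were below 5. Levels of different genes were not set against each other, because probes differ in brightness. Array medians lay between 4.59 and 4.9, and replicate arrays correlated at Pearson's r between 0.987 and 0.996 across genes. A commercial kit served to isolate RNA from the RAD, whereas a hot borate method was used for MCE and dry seed samples, so compartment and isolation method cannot be told apart. Of 3 endosperm marker genes measured, EPR1 had group means of 13.65 to 13.79 in the MCE, as opposed to 6.44 to 7.27 in the RAD, whereas EXPA2 and NAC25 stayed below 5 in both. Averaged over the 4 times, 7 of 8 markers of the embryo axis were higher in the RAD and 1, ATML1, was higher in the MCE. PDF1 differed most, with RAD means of 5.71 to 9.23 and MCE means of 4.97 at most. SHR, PLT1, PLT2 and MP were below 5 in every group, and GL2 exceeded 5 only in the RAD at 24 HAS (5.25). SCR was above 5 in both compartments, and at 24 HAS its mean was 8.04 in the MCE against 7.70 in the RAD. Whether one tissue in the dissected sample of the other had a part in the differences below was not tested, and in such bulk samples fewer cells of a type and less RNA per cell cannot be told apart.

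A group mean above 5 was reached by 8 of the 10 genes, and NCED3 and NCED6 had none. Over all 21313 genes, 11817 reached this level. The levels of 9 of the 10 genes differed between the 9 groups by the F test of limma, where 68.2% of all genes passed at an adjusted p under 0.05. The gene that did not pass was NCED6 (adjusted p = 0.109). NCED5 had the widest span of group means, 4.17 on the log2 scale, with its lowest mean in dry seeds. NCED2 followed with 3.98 and ABA3 with 3.59, while NCED6 spanned 0.40.

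**Figure D1:**
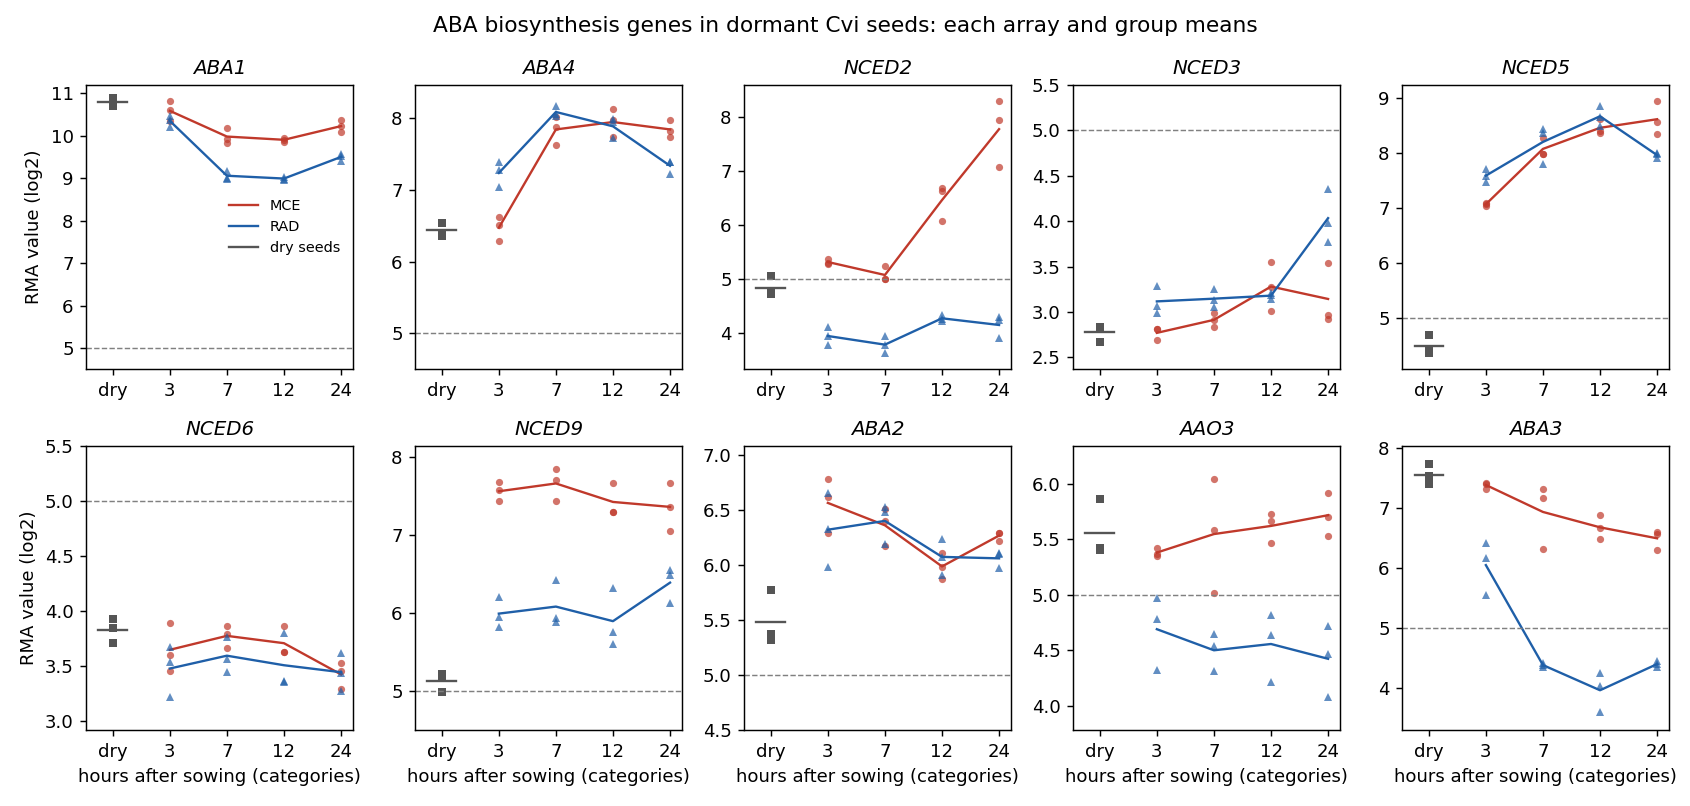
RMA values (log2) of the 10 genes in dry seeds and at 3, 7, 12 and 24 HAS, which are drawn as evenly spaced categories. Points are single arrays (circles MCE, triangles RAD, squares dry seeds), lines join the means of 3 arrays, the dashed line is the level of 5, and each gene has its own vertical scale. NCED2 rose in the MCE to a mean of 7.77 at 24 HAS and stayed under 5 on every RAD array, and ABA3 fell in the RAD to a mean of 3.96 at 12 HAS.

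At the epoxidase step, ABA1 (AT5G67030_at) was above 5 on all 27 arrays and had its highest mean before imbibition. Replicates 1 to 3 of the dry seeds were at 10.71, 10.75 and 10.90. The MCE arrays of 3 HAS were at 10.81, 10.62 and 10.34, those of 7 HAS at 9.83, 10.19 and 9.93, those of 12 HAS at 9.91, 9.95 and 9.86, and those of 24 HAS at 10.08, 10.37 and 10.24. In the RAD they were at 10.46, 10.22 and 10.38, then at 9.18, 8.99 and 9.01, then at 9.04, 8.98 and 8.96, and finally at 9.58, 9.41 and 9.52. The 9 RAD arrays from 7 HAS onwards lay below every other array, while at 3 HAS the compartments overlapped. In order of level, each group from dry seeds down to the MCE at 12 HAS overlapped with its neighbour, and the RAD at 24 HAS stood clear of the RAD at 7 and 12 HAS, which overlapped. From 3 to 7 HAS ABA1 fell in the MCE (log2 fold change -0.61, SE 0.121, adjusted p = 0.000341 from limma) and in the RAD (-1.30, SE 0.121, adjusted p = 9.76e-09). It rose again from 12 to 24 HAS in the RAD by 0.51 (adjusted p = 0.00694), against 0.32 in the MCE, which did not pass (adjusted p = 0.159).

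ABA4 (AT1G67080_at), needed for neoxanthin, ran the other way and was lowest in dry seeds and in the MCE at 3 HAS. Dry seeds were at 6.54, 6.36 and 6.40. The MCE was at 6.62, 6.28 and 6.51 by 3 HAS and moved to 7.87, 7.63 and 8.02 by 7 HAS, to 7.73, 7.97 and 8.13 by 12 HAS, and to 7.73, 7.82 and 7.97 by 24 HAS. The RAD began at 7.38, 7.04 and 7.28, reached 8.03, 8.16 and 8.06 by 7 HAS, was at 7.99, 7.72 and 7.94 by 12 HAS and returned to 7.39, 7.39 and 7.22 by 24 HAS. At 3 HAS every RAD array lay above every MCE array, and at 24 HAS the order was opposite. The groups between these, namely both compartments at 7 and 12 HAS and the MCE at 24 HAS, overlapped with their neighbours. The rise from 3 to 7 HAS passed the test in both compartments, by 1.37 in the MCE (SE 0.129, adjusted p = 1.19e-08) and by 0.85 in the RAD (SE 0.129, adjusted p = 1.22e-05), and the fall from 12 to 24 HAS passed in the RAD (-0.55, adjusted p = 0.00653).

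Among the NCED genes, NCED2 (AT4G18350_at) separated the compartments at every time. Dry seeds were at 4.72, 5.07 and 4.75. In the MCE the arrays of 3 HAS were at 5.30, 5.38 and 5.28, followed by 5.24, 5.0 and 5.0 at 7 HAS, by 6.07, 6.63 and 6.69 at 12 HAS, and by 7.08, 8.29 and 7.95 at 24 HAS. The RAD arrays were at 3.96, 4.12 and 3.78, then 3.64, 3.79 and 3.95, then 4.26, 4.35 and 4.23, and then 4.25, 4.31 and 3.91, with every one below every dry and MCE array. The MCE at 24 HAS stood clear above the MCE at 12 HAS, and this above the MCE at 3 HAS, although replicate 1 was the lowest array at both later times. With all arrays, NCED2 was the only 1 of the 10 genes that changed in the MCE after 7 HAS by the test of single intervals, rising by 1.38 from 7 to 12 HAS (SE 0.204, adjusted p = 5.13e-05) and by 1.31 from 12 to 24 HAS (SE 0.204, adjusted p = 0.000243). These SE draw on the spread in all 9 groups, whereas the SD of the MCE arrays was 0.35 at 12 HAS and 0.62 at 24 HAS. In the RAD the change of NCED2 in each interval did not pass.

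NCED5 (AT1G30100_at) was below 5 in dry seeds and above 7 on every array of imbibed tissue. Dry seeds were at 4.44, 4.69 and 4.37. The MCE gave 7.07, 7.1 and 7.04 after 3 hours, 8.27, 7.98 and 7.98 after 7, 8.62, 8.4 and 8.36 after 12, and 8.94, 8.56 and 8.35 after 24 hours. The RAD went from 7.58, 7.47 and 7.72 to 7.80, 8.37 and 8.44, and then from 8.49, 8.86 and 8.66 at 12 HAS to 8.0, 7.91 and 7.98 at 24 HAS. At 3 HAS the RAD arrays were all above those of the MCE, and at 24 HAS they were all below. It rose from 3 to 7 HAS in both compartments, by 1.01 in the MCE (SE 0.156, adjusted p = 1.95e-05) and by 0.62 in the RAD (SE 0.156, adjusted p = 0.00321). From 12 to 24 HAS it fell in the RAD (-0.70, SE 0.156, adjusted p = 0.00402), where its change in the MCE was 0.16 (adjusted p = 0.786).

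NCED9 (AT1G78390_at), known for ABA synthesis in developing seeds, was higher in imbibed tissue than in dry seeds, with the MCE above the RAD. Dry seeds were at 5.17, 4.99 and 5.22. The 12 MCE arrays ran from 7.05 over a median of 7.51 to 7.84, and the 12 RAD arrays from 5.61 over 6.04 to 6.55. The 3 ranges did not touch, and within each compartment every time overlapped with its neighbour in level. No change between consecutive times passed the test in either compartment, with the largest in the RAD from 12 to 24 HAS (0.49, adjusted p = 0.0964). This one passed without replicate 2 of the RAD at 12 HAS (0.70, adjusted p = 0.0216).

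NCED3 (AT3G14440_at), known for its induction by drought, and NCED6 (AT3G24220_at), known from the endosperm of developing seeds, stayed below 5 on all 27 arrays. NCED3 ranged from 2.67 to 4.35 and NCED6 from 3.22 to 3.93. NCED3 was highest in the RAD at 24 HAS, where its arrays at 3.98, 4.35 and 3.77 lay above those of every other group, the next being a single MCE array at 12 HAS with 3.55. This was a rise of 0.85 from the RAD at 12 HAS (SE 0.154, adjusted p = 0.000701), all of it beneath the level taken as expressed. Neighbouring groups of NCED6 overlapped along the whole order of its means.

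For the last steps, ABA2 (AT1G52340_at), the xanthoxin dehydrogenase, varied least among the expressed genes, and its 24 arrays of imbibed tissue lay between 5.87 and 6.78. Dry seeds, at 5.77, 5.37 and 5.32, were below all of these. The groups of imbibed tissue overlapped with their neighbours, and no interval in either compartment passed the test.

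AAO3 (AT2G27150_at), the abscisic aldehyde oxidase, was at 5.86, 5.40 and 5.42 in dry seeds. In the MCE it ran from 5.02 over a median of 5.55 to 6.04, and in the RAD from 4.08 over 4.59 to 4.97. All 12 MCE arrays were thus above 5 and all 12 RAD arrays below, with a narrow gap, and dry seeds fell in the MCE range. None of its changes between consecutive times passed the test. The lowest and the highest MCE array both came from 7 HAS, replicates 1 and 2.

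ABA3 (AT1G16540_at), the cofactor sulfurase, fell in both compartments between 3 and 24 HAS. Dry seeds were at 7.53, 7.39 and 7.73. The MCE gave 7.42, 7.32 and 7.40 after 3 hours, 6.32, 7.31 and 7.16 after 7, 6.66, 6.88 and 6.48 after 12, and 6.30, 6.57 and 6.6 after 24 hours. The RAD was at 6.41, 5.55 and 6.17 at 3 HAS and then at 4.41, 4.38 and 4.34, at 4.25, 3.59 and 4.03, and at 4.44, 4.40 and 4.34. The 9 RAD arrays from 7 HAS onwards were below 5 and below all others, and the RAD at 3 HAS overlapped only with the lowest MCE arrays. In the RAD it fell at least 2.06-fold from 3 to 7 HAS (fitted log2 fold change -1.66, SE 0.207, adjusted p = 8.07e-07). No single interval passed in the MCE, where the change from 3 to 7 HAS was -0.45 (adjusted p = 0.114), and -0.64 without replicate 2 at 7 HAS (adjusted p = 0.034).

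The first comparison asked how the pathway differed between dry seeds and the earliest imbibed tissue. Since whole seeds are set against a compartment, tissue and time change together, and from dry seeds to the RAD the RNA isolation method changes as well. From dry seeds to the MCE at 3 HAS, NCED5 rose at least 4.20-fold (fitted log2 fold change 2.57, SE 0.156, adjusted p = 1.28e-12), NCED9 rose 5.41-fold (2.43, SE 0.185, adjusted p = 7.58e-11) and ABA2 rose 2.11-fold (1.08, SE 0.157, adjusted p = 4.75e-06). These were 3 of the 10 genes higher and 0 lower, with 15.2% of all genes higher and 14.9% lower. The other 7 had log2 fold changes between -0.20 for ABA1 and 0.47 for NCED2 (adjusted p = 0.0842 for the latter).

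From dry seeds to the RAD at 3 HAS, 8 of the 10 genes changed. NCED5, at least 6.02-fold higher (fitted log2 fold change 3.09, SE 0.156, adjusted p = 3.67e-14), NCED9 (0.87), ABA2 (0.83) and ABA4 (0.80) were the 4 that rose, where 15.6% of all genes were higher. ABA3 (-1.51), NCED2 (-0.89), AAO3 (-0.87) and ABA1 (-0.43) were the 4 that fell, where 15.6% of all genes were lower. Both means of NCED2 were below 5, so its fall lay beneath the level taken as expressed. The RAD mean of AAO3 was also below 5, and its fall was at least 1.48-fold. NCED3 (0.33, adjusted p = 0.109) and NCED6 (-0.35, adjusted p = 0.0731) did not pass, and NCED6 passed without replicate 3 of the RAD at 3 HAS (-0.45, adjusted p = 0.0396). After means below 4 were raised to 4, NCED5 and NCED9 exceeded 3-fold in the MCE, where 2.04% of all genes rose by as much, and NCED5 did so in the RAD, where 1.18% did. Both comparisons share the dry seed arrays.

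During imbibition of the MCE from 3 to 24 HAS, NCED2, NCED5 and ABA4 rose, while ABA1 and ABA3 fell. The median log2 fold change of the 10 genes was 0.07, beside -0.05 over all genes. NCED2 rose 5.48-fold (log2 fold change 2.46, SE 0.204, adjusted p = 4.69e-10), NCED5 2.92-fold (1.55, SE 0.156, adjusted p = 1.24e-08) and ABA4 2.59-fold (1.37, SE 0.129, adjusted p = 3.88e-09). ABA3 fell 1.86-fold (-0.89, SE 0.207, adjusted p = 0.00111) and ABA1 fell 1.28-fold (-0.36, SE 0.121, adjusted p = 0.0207). Hence 3 of the 10 genes were higher, against 18.8% of all genes, and 2 lower, against 16.8%. NCED2 alone reached 3-fold, as 2.24% of all genes did in this direction. AAO3 (0.34), NCED3 (0.37), NCED9 (-0.20), NCED6 (-0.23) and ABA2 (-0.30) did not pass. The call of ABA1 was lost without replicate 1 at 3 HAS (adjusted p = 0.146), replicate 2 at 3 HAS (0.0575) or replicate 1 at 24 HAS (0.114), while NCED3 passed without replicate 1 (adjusted p = 0.0404) or replicate 3 at 24 HAS (0.0277), and ABA2 without replicate 3 at 3 HAS (0.0489).

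The same interval in the RAD brought a fall of ABA3 by at least 2.06-fold (fitted log2 fold change -1.65, SE 0.207, adjusted p = 3.21e-07) and of ABA1 by 1.81-fold (-0.85, SE 0.121, adjusted p = 1.96e-06). NCED3 passed with a fitted change of 0.92 (SE 0.154, adjusted p = 2.28e-05), but both of its means were below 5, and with means raised to 4 the change was 0.03. So 1 gene was higher, the unexpressed NCED3, where 20.3% of all genes were, and 2 were lower, where 17.9% were. With means raised to 4, ABA3 alone passed the 3-fold limit downwards, as did 1.31% of all genes, and with means raised to 5 the count was 0. The median of the 10 genes was 0.03, beside -0.04 over all genes. NCED5 (0.37, adjusted p = 0.0614), NCED9 (0.40, adjusted p = 0.0968), NCED2 (0.20) and ABA4 (0.10) did not pass over the whole interval. Without replicate 2 at 24 HAS NCED9 passed (0.53, adjusted p = 0.0468), and without replicate 1 at 3 HAS ABA2 did (-0.43, adjusted p = 0.0409).

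By single intervals, the number of genes that passed varied over the time course, as did the share of all genes. In the MCE 3 genes passed from 3 to 7 HAS (26.9% of all genes), 1 from 7 to 12 HAS (12.0%) and 1 from 12 to 24 HAS (4.27%). In the RAD 4 passed from 3 to 7 HAS (28.6% of all genes), namely NCED5 and ABA4 upwards and ABA1 and ABA3 downwards. None, 0 of 10, passed limma's adjusted threshold in the RAD from 7 to 12 HAS (5.09% of all genes), where 3 had an unadjusted p under 0.05. From 12 to 24 HAS 4 passed again (9.98% of all genes). Of these, NCED5, ABA4 and ABA1 moved opposite to their change from 3 to 7 HAS, and NCED3 was below 5 at both times. Without replicate 1 of the MCE at 12 HAS, NCED3 also passed from 7 to 12 HAS (0.50, adjusted p = 0.0453).

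Whether the change from 3 to 24 HAS differed between the compartments was tested as an interaction. It was larger in the MCE for NCED2 by 2.25 (SE 0.288, adjusted p = 4.98e-06), for ABA4 by 1.27 (SE 0.183, adjusted p = 2.61e-05) and for NCED5 by 1.17 (SE 0.220, adjusted p = 0.000617), all on the log2 scale. These were 3 of the 10 genes higher, with 5.58% of all genes, and 0 lower, with 6.10%. The difference of ABA1 was 0.49 (adjusted p = 0.0604) and that of ABA3 0.76 (adjusted p = 0.0998), so that the difference between their falls in the RAD and in the MCE did not pass. Without replicate 2 of the RAD at 3 HAS, 5 genes passed, with ABA3 at 1.0 (adjusted p = 0.0206) and ABA1 at 0.56 (adjusted p = 0.0447). ABA1 also passed without replicate 1 of the MCE at 3 HAS (adjusted p = 0.023) or at 24 HAS (0.0384), and NCED3 without replicate 2 of the MCE at 24 HAS (-0.74, adjusted p = 0.0209).

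**Figure D2:**
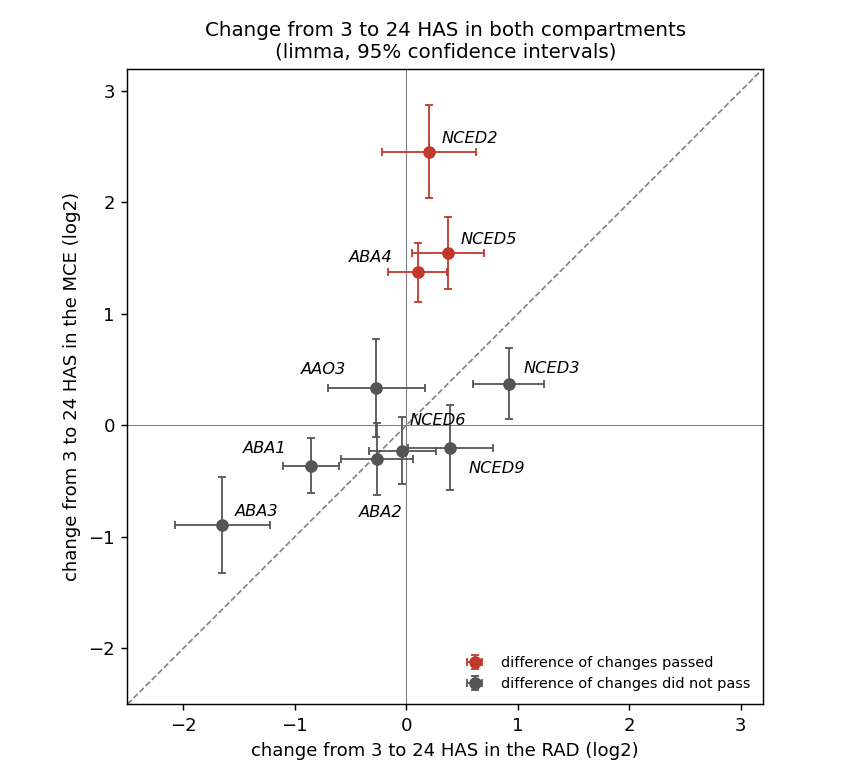
Change of each gene from 3 to 24 HAS (log2) in the RAD, on the horizontal axis, against that in the MCE, on the vertical axis, with 95% confidence intervals from limma. On the dashed line both changes would be equal, and the 3 genes in red, NCED2, NCED5 and ABA4, lie above it with a difference that passed the interaction test.

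The comparison of the compartments asked where in the seed each step of the pathway was higher. Averaged over the 4 times, ABA3 was at least 3.05-fold higher in the MCE (fitted log2 difference 2.18, SE 0.104, adjusted p = 6.13e-16) and NCED2 at least 2.23-fold higher (2.11, SE 0.102, adjusted p = 8.01e-16). NCED9 was 2.66-fold higher (1.41, SE 0.0924, adjusted p = 4.53e-13), AAO3 at least 1.48-fold (1.02, SE 0.106, adjusted p = 3.34e-09) and ABA1 1.62-fold (0.70, SE 0.0603, adjusted p = 1.03e-10). NCED3 was lower in the MCE (-0.34, adjusted p = 0.000386), below the level of expressed genes in both. Thus 5 of the 10 genes were higher in the MCE, where 26.5% of all genes were, and 1 was lower, where 32.5% were. The median log2 difference of the 10 genes was 0.42, beside -0.06 over all genes. With means raised to 4, NCED2 and ABA3 passed the 3-fold limit in this direction, as did 2.44% of all genes, and with means raised to 5 ABA3 alone did. For NCED2, NCED9 and AAO3, 3 of the 10 genes, all 12 MCE arrays lay above all 12 RAD arrays, which held for 5.15% of all genes. The differences of NCED5 (-0.05, 95% confidence interval -0.21 to 0.11), ABA4 (-0.11, -0.24 to 0.02) and ABA2 (0.08, -0.08 to 0.24) did not pass, nor did that of NCED6 (0.13, -0.02 to 0.28), which passed without replicate 3 of the RAD at 12 HAS (0.17, adjusted p = 0.043).

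The averages hide a change of direction in NCED5 and ABA4. At 3 HAS both were lower in the MCE, NCED5 by a log2 difference of -0.52 (SE 0.156, adjusted p = 0.0106) and ABA4 by -0.76 (SE 0.129, adjusted p = 3.58e-05). At 24 HAS both were higher, NCED5 by 0.66 (SE 0.156, adjusted p = 0.00118) and ABA4 by 0.51 (SE 0.129, adjusted p = 0.0023). At 7 and 12 HAS neither difference passed. Without replicate 3 of the RAD at 3 HAS the difference of NCED5 at 3 HAS narrowly missed the threshold (-0.45, adjusted p = 0.0533).

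For NCED2, whose RAD means were all below 5, the fitted difference was 1.36, 1.28, 2.19 and 3.62 at the successive times, and it passed at each time. With means raised to 5, it was 0.32, 0.08, 1.46 and 2.77. ABA3 was also higher at every time, by 1.34, 2.55, 2.72 and 2.1 in turn, as was NCED9, by 1.57, 1.58, 1.52 and 0.97. The RAD means of ABA3 were below 5 from 7 HAS onwards, and raising means to 5 gave 1.34, 1.93, 1.67 and 1.49. AAO3, with all RAD means below 5, differed by a fitted 0.69, 1.05, 1.06 and 1.29. With means raised to 5, AAO3 differed by 0.38, 0.55, 0.62 and 0.71. Its difference at 3 HAS passed with all arrays (adjusted p = 0.0124) and not without replicate 2 of the RAD (0.51, adjusted p = 0.103). ABA1 was higher in the MCE from 7 HAS onwards, by 0.92, 0.91 and 0.73, and at 3 HAS by 0.24, which did not pass (adjusted p = 0.148) but did without replicate 3 of the MCE (adjusted p = 0.0305). In either direction 6 of the 10 genes differed after 3 hours (33.1% of all genes), 5 after 7 hours (40.6%), 5 after 12 hours (41.7%) and 8 after 24 hours (39.4%).

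**Figure D3:**
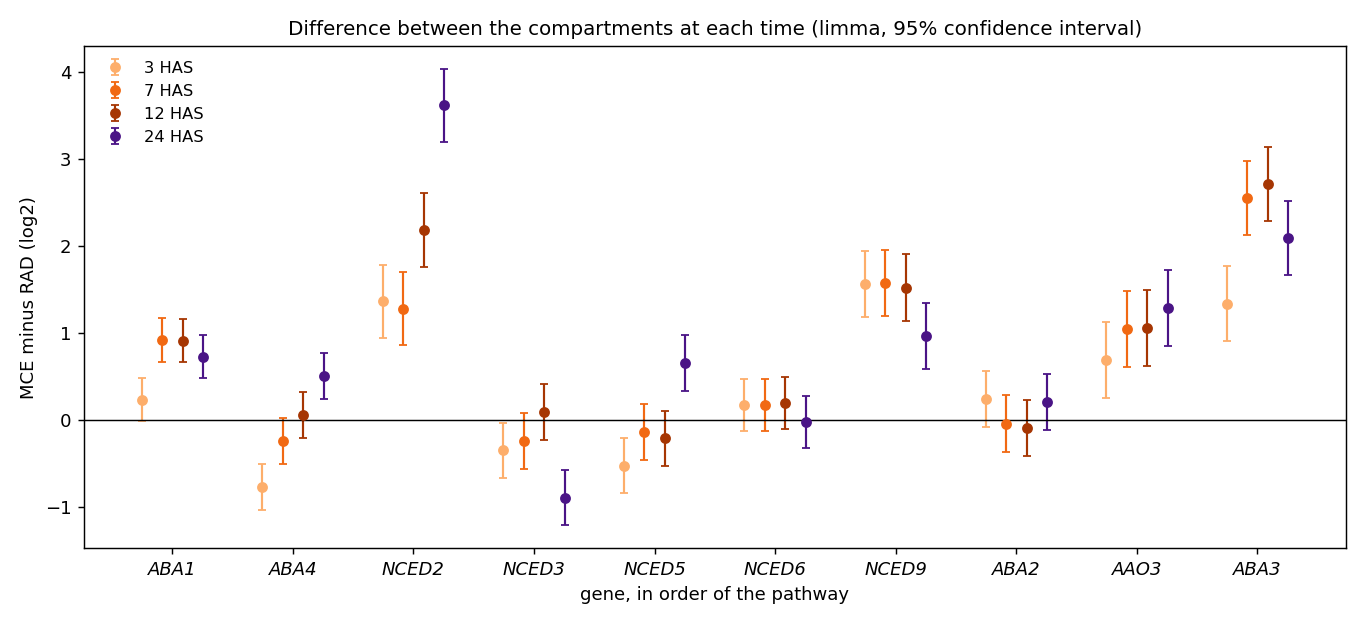
Difference between the MCE and the RAD (log2, MCE minus RAD) for each gene at 3, 7, 12 and 24 HAS, with 95% confidence intervals from limma on 3 arrays per group. NCED2, NCED9, ABA3 and AAO3 lie above 0 at all 4 times, and NCED5 and ABA4 go from below 0 at 3 HAS to above 0 at 24 HAS.

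The 10 genes did not follow one common course. Over the 9 group means, Pearson's r was 0.91 between ABA1 and ABA3, 0.88 between ABA3 and AAO3, 0.84 between NCED5 and ABA4 and 0.80 between NCED2 and AAO3, while ABA1 and ABA4 gave -0.74. Over the 8 groups of imbibed tissue alone NCED9 and AAO3 gave 0.92, against 0.51 with the dry seeds. These are descriptions over few groups, of which those of 1 compartment share tissue and RNA isolation method. Among 5124 genes with a comparable span that reached above 5, the pattern closest to NCED2 was that of GATA3, a GATA family transcription factor (r = 0.99), followed by AT5G17010 (0.98). The closest were AT1G74680 and AT5G45630 for NCED5, AT4G31000 and PLL4 for NCED9, BZO2H1 and AT4G02480 for ABA1, AT1G19485 and ATE2F2 for ABA3, and AT5G08050 and AT3G62270 for ABA4, with r from 0.965 to 0.997 over the 9 means. A correlation over 0.9 was shared by 532 genes with ABA3, 294 with ABA1, 115 with NCED9, 83 with NCED2, 75 with NCED5 and 38 with ABA4.

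The genes around the pathway were described in 4 lists. In carotenoid metabolism around ABA1, a list that also holds the lutein branch and NPQ1, which reverses the ABA1 step, 7 of 12 genes had higher levels in the MCE (26.5% of all genes) and 2 had lower ones (32.5%) compared with the RAD, with a median log2 difference of 0.63 beside -0.06 over all genes. PSY, phytoene synthase at the entry to the carotenoids, had the largest fitted difference (3.87, SE 0.0868, adjusted p = 7.5e-23), with all RAD means below 5 (4.67 at most). From 3 to 24 HAS 3 of these genes rose (18.8% of all genes) and 5 fell (16.8%) in the MCE (median -0.19), PSY rising by 1.65 (adjusted p = 2.41e-08). In the RAD 1 rose (20.3% of all genes) and 6 fell (17.9%), with a median of -0.42, led by BETA-OHASE 2, a beta-carotene hydroxylase (-1.95, adjusted p = 1.9e-09). Medians over all genes were -0.05 and -0.04 for these intervals.

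Of the 4 other carotenoid cleavage dioxygenases, NCED4, which is also called CCD4 and is not counted among the ABA enzymes, had the largest fitted changes. It fell from 3 to 24 HAS in the MCE (-1.35, adjusted p = 2.35e-06) and in the RAD (-2.48, adjusted p = 7.69e-11), and was lower in the MCE (-1.03, adjusted p = 3.61e-10). Its mean in the MCE was 5.23 at 3 HAS and below 5 from 7 HAS onwards, so most of its fitted fall there lay below 5. In the RAD its means were 6.93 at 3 HAS and 5.21 at 7 HAS, and below 5 at 12 and 24 HAS. In this list 1 gene rose (18.8% of all genes) and 2 fell (16.8%) in the MCE, and 0 rose (20.3%) and 2 fell (17.9%) in the RAD. Relative to the RAD 2 were higher (26.5%) and 1 lower (32.5%) in the MCE. CCD7, counted as falling in both compartments and as higher in the MCE, was below 5 in every group of imbibed tissue, with means of 4.43 at most. The medians of these 4 genes were -0.36, -0.61 and 0.08, beside -0.05, -0.04 and -0.06 over all genes. Of the other aldehyde oxidases and genes of molybdenum cofactor synthesis, 7 of the 9 listed were used. In the MCE 3 rose (18.8% of all genes) and 3 fell (16.8%), with AAO2 rising most (1.72, adjusted p = 7.47e-08), and in the RAD 3 rose (20.3%) and 4 fell (17.9%), with CNX2, an enzyme of the first step of cofactor synthesis, falling most (-1.57, adjusted p = 1.95e-10). Between the compartments 3 were higher (26.5%) and 3 lower (32.5%) in the MCE, led by the aldehyde oxidase AO1 (0.88, adjusted p = 1.47e-12). The medians of this list were -0.26, -0.70 and -0.15.

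Genes that remove ABA or release it from its glucose ester, of which 6 of the 7 listed were used, were higher in the MCE in 4 cases (26.5% of all genes) and lower in 0 (32.5%), with a median of 0.83 beside -0.06 over all genes. UGT71C5, which conjugates ABA to glucose, differed most (1.22, adjusted p = 4.74e-11). Between 3 and 24 HAS 2 of them rose (18.8% of all genes) and 0 fell (16.8%) in the MCE, with a median of 0.22 beside -0.05, CYP707A1 rising by 2.03 (adjusted p = 7.83e-06). In the RAD 2 rose (20.3%) and 1 fell (17.9%), with a median of 0.04 beside -0.04, the gene that fell being CYP707A2 (-1.26, adjusted p = 1.23e-07), a hydroxylase known for the fall of ABA in imbibed seeds.

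**Figure D4:**
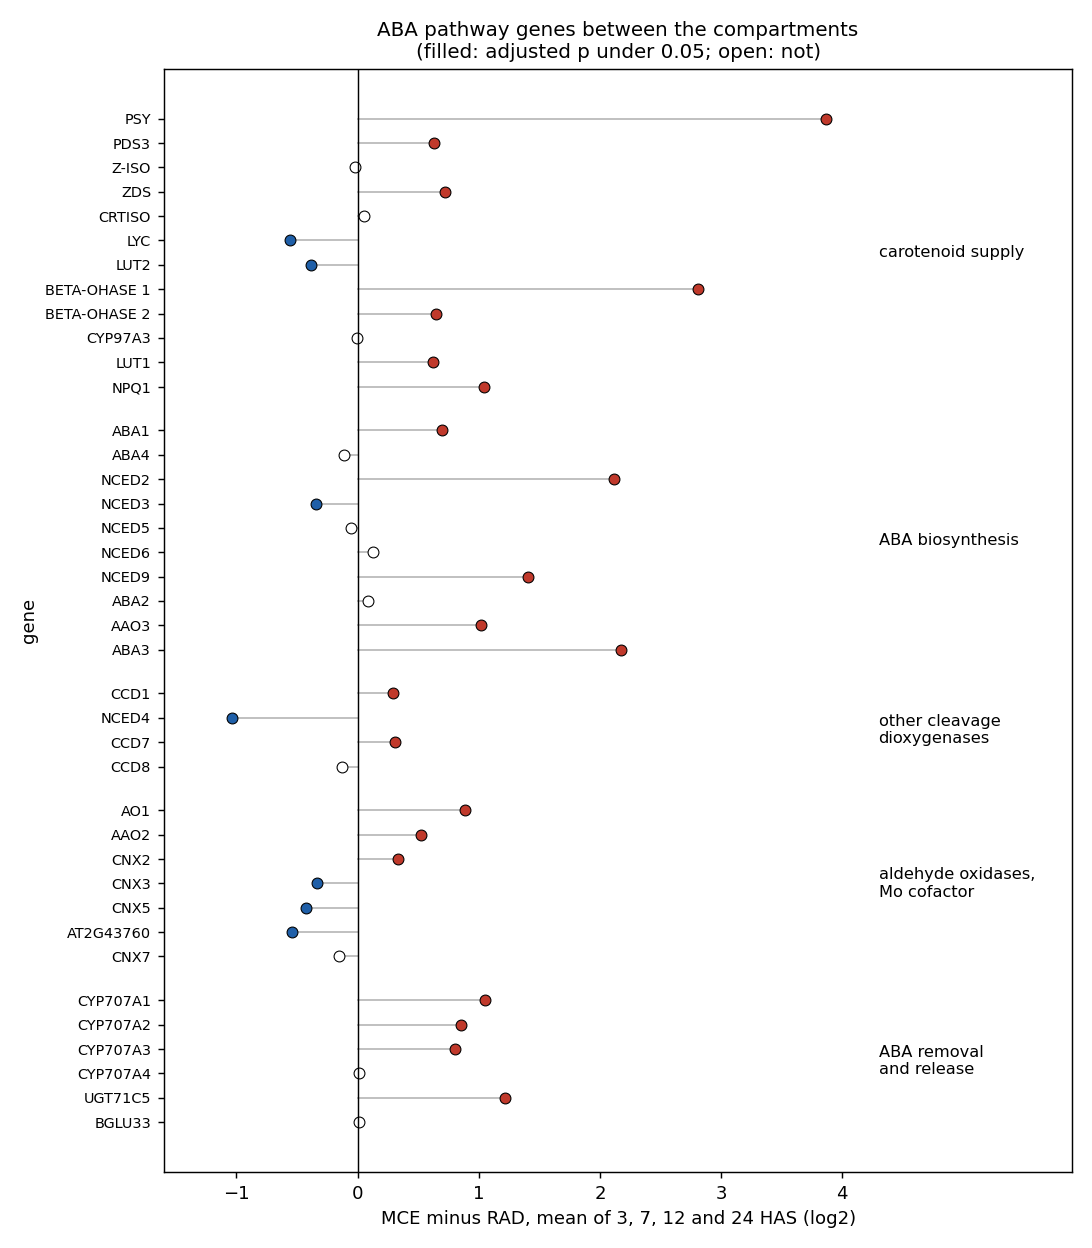
Log2 difference between the MCE and the RAD, averaged over 3, 7, 12 and 24 HAS, for each gene used, in the groups named at the right. Filled points passed at an adjusted p under 0.05 (red higher in the MCE, blue lower) and open points did not. Of the 10 ABA biosynthesis genes, 5 are red and 1 is blue.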

How the data were processed

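Total RNA of 9 groups of D Cvi seed samples was hybridized to ATH1 arrays, with 3 replicate arrays per group. The deposited log2 values are those of the authors, who ran RMA on these arrays jointly with others, summarised the probes to 1 value per gene through a custom CDF and dropped the control probes. A genome build is not given in the sources used here. No further normalization was applied. The labels state that plants were grown in replicates but not which arrays share one, so p-values measure the spread between these arrays. The members and lists were chosen with earlier results of these data known.

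All 27 arrays in 9 groups were fitted with limma 3.58.1 in R 4.3.3 (lmFit, contrasts.fit, eBayes), with 18 residual degrees of freedom, p-values adjusted by Benjamini-Hochberg across the 21313 genes of each of 16 comparisons, and a threshold of 0.05. Means below 4 were raised to 4 for calls of at least 3-fold, and means below 5 to 5 for fold bounds. The script was tested on simulated data. Named besides the members were, from each pathway list, the called gene with the largest change in each compartment and between the compartments, and the 2 genes closest in pattern to each member that spanned 3-fold and exceeded 5. Gene symbols were looked up in RefSeq (TAIR10.1), with 21205 genes matched. AAO4 was not analysed here, and CNX1 and BG1, although on the array, were left out because the table gives these symbols to other loci. Deviations of same-numbered arrays from their group means correlated above 0.1 for every number in 2 of 36 pairs of groups, the MCE at 7 and 12 HAS and the MCE at 12 and 24 HAS (lowest r 0.21 in each).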

Additional observations from a re-analysis of the deposited data

Results flagged for a closer look

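The change from 3 to 24 HAS differed between the compartments, by the interaction test of limma, for 3 of the 10 genes. The change in the MCE minus that in the RAD was 2.25 on the log2 scale for NCED2 (SE 0.288, adjusted p = 4.98e-06). For ABA4 it was 1.27 (SE 0.183, adjusted p = 2.61e-05) and for NCED5 1.17 (SE 0.220, adjusted p = 0.000617). All 3 arrays at 24 HAS lay above all 3 arrays at 3 HAS in the MCE for each of these genes. No group of 3 arrays was searched for outlying arrays.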

How the results depend on the processing

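Besides the omission of single arrays, 9 alternative settings were tried. Of 60 results for single genes, 28 passed with all arrays, and the 888 recomputed values gave 850 with the same direction and side of the threshold, 4 no longer past it, 23 newly past it and 11 of opposite sign, the last in 5 results that had not passed with all arrays. Quantile normalization applied again gave ABA2 -0.0636 between the compartments and ABA4 -0.0413 from dry seeds to the MCE. More genes passed under it: 8 instead of 6 between the compartments and 7 instead of 5 in the MCE from 3 to 24 HAS. From dry seeds to the RAD 9 passed instead of 8. Some differences that did not pass with the deposited values thus depend on the normalization. Without single arrays, the range of log2 fold changes crossed 0 for NCED3 (-0.0682 to 0.0311) and ABA4 (-0.0376 to 0.129) from dry seeds to the MCE, for the interaction of ABA2 (-0.201 to 0.131) and for NCED6 from 3 to 24 HAS in the RAD (-0.164 to 0.0636). The number of genes passing the interaction ranged from 3 to 5 without single arrays.

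Requiring 3-fold with means raised to 4 left 1 gene in the MCE and 1 in the RAD from 3 to 24 HAS, 2 between the compartments and 1 from dry seeds to the RAD. With means raised to 5 these were 1, 0, 1 and 1. With the replicate number as a block, 6 genes instead of 5 passed in the MCE from 3 to 24 HAS, NCED3 being added, and no other call changed. With 3 arrays per group and the noise of the array below about 5, small changes of NCED3, NCED6 and of ABA3, NCED2 and AAO3 in the RAD are uncertain as measures of the transcript.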
